A study of Homo sapiens with 2 samples.

Results

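The NFAT genes encode 5 transcription factors with a Rel-type DNA-binding domain. Their chromatin was described here from ATAC-seq peaks of 2 human cell lines. In ATAC-seq a transposase inserts adapters where chromatin is open, and a peak is a stretch with many insertions. The genes were NFATC1, NFATC2, NFATC3, NFATC4 and NFAT5. A peak belonged to a gene if it overlapped the RefSeq gene body or the 50 kb on either side, and by this rule the windows of the 5 genes held 39 of 59631 peaks in J76 and 41 of 85597 peaks in 293T. No peak fell in more than 1 of the windows. J76 is a T-lymphoblastic leukemia line, a Jurkat derivative without T cell receptor chains, and 293T (labelled T293) is an embryonic kidney line that carries the SV40 large T antigen. Neither line was given a treatment in the labels. Each was profiled once, from 50000 cells tagged with a transposase made in the submitters' laboratory, so there is 1 library per line, no replicate error and no test between the lines.

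NFATC1 to NFATC4 are held in the cytoplasm by phosphorylation. A rise in calcium activates the phosphatase calcineurin, which removes the phosphates and lets the proteins enter the nucleus, where in T cells they act with AP-1 on cytokine genes. NFAT5 lacks the calcineurin-binding region and is known for the response to osmotic stress, above all in the kidney medulla. Several NFAT genes have more than one promoter. The first promoter of NFATC1 is inducible and is acted on by NFAT proteins themselves, while a second promoter further into the gene is constitutive.

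NFATC2 and NFATC4 had a peak at a start site in both lines, but at different start sites. At NFATC2, which encodes the NFAT protein of resting T cells, J76 had its peak at the inner start and 293T at the outer start, 20.1 kb upstream. At NFATC4 the J76 peak covered the inner pair of starts and the 293T peak the outer start, 2.09 kb upstream. NFATC1, NFATC3 and NFAT5 had a peak in both lines at the first start or at the low-coordinate gene end. The sequences of the starts that tell these cases apart are shown next. Each is the RefSeq GRCh38.p14 window of 300 bases on the transcribed strand, with 250 bases before the start site, and matches to GGAAA (the core bound by NFAT proteins), read on both strands, are in capitals.

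NFATC2 outer start, chr20:51562790-51563089, minus strand, covered in 293T: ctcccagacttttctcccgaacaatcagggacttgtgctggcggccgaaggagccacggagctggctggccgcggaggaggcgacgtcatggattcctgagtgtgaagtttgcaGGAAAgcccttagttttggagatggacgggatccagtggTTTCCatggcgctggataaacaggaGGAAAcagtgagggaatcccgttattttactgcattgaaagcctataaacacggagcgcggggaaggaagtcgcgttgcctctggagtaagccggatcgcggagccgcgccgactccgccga
NFATC2 inner start, chr20:51542670-51542969, minus strand, covered in J76: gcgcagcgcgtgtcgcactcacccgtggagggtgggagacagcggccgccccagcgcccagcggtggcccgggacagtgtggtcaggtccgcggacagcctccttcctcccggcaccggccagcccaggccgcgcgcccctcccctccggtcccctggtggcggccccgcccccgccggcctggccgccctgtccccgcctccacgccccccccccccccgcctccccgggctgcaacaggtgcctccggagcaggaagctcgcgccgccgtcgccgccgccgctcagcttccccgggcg
NFATC4 outer start, chr14:24366661-24366960, plus strand, covered in 293T: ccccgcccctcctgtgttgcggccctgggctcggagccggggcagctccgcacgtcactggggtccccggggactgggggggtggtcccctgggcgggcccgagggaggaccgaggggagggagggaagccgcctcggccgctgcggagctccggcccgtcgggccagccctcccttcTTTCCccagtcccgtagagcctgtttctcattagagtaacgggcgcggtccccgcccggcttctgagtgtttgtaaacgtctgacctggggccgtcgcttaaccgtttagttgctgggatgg
NFATC4 first inner start, chr14:24368748-24369047, plus strand, covered in J76: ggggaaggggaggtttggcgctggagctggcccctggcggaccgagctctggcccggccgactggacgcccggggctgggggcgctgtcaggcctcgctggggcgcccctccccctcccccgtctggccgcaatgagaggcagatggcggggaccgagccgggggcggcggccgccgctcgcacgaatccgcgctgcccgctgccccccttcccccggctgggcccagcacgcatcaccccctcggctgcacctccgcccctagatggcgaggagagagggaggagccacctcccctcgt
NFATC1 first start, chr18:79395680-79395979, plus strand, covered in both lines: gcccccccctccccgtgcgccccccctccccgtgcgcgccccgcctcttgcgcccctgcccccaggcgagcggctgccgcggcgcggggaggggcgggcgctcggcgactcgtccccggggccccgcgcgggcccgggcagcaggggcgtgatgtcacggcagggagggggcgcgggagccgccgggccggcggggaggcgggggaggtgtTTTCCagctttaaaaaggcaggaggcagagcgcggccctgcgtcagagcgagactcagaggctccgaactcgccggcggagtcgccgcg
NFATC1 second start, chr18:79400049-79400348, plus strand, covered in neither line: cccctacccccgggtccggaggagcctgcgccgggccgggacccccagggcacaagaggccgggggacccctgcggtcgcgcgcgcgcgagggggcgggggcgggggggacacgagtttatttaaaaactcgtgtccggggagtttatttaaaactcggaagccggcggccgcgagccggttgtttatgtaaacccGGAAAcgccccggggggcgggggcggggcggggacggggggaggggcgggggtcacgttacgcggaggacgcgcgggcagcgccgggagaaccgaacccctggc

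At the inner start of NFATC2 the J76 peak spanned 1794 bp (chr20:51541133-51542926) with a fold of 5.53, the authors' enrichment over background at the summit, and a −log10 q of 31.0. Its summit lay 14 bp from the start site. In 293T the nearest peak to this window was 11591 bp away. The outer start showed the reverse. There the 293T peak (chr20:51562224-51563286) had a fold of 6.45 and a −log10 q of 30.1, its summit was 55 bp inside the start site, and the nearest J76 peak was 19864 bp away, namely the one at the inner start. Both peaks were strong for their kind, at percentile 81.7 of all J76-only peaks and 90.6 of all 293T-only peaks by fold.

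NFATC4, a family member known from heart, nerve and other non-lymphoid tissue, had closer starts, and the difference there was one of extent. The J76 peak at the inner starts (chr14:24368195-24369181, fold 6.09, −log10 q 31.1) had its summit 12 bp before the first of the pair. The 293T peak over the outer start (chr14:24366089-24368074, fold 5.43, −log10 q 45.9) was 1986 bp wide, had its summit 519 bp inside the gene, and ended 674 bp short of the inner window. A second, weaker J76 peak (fold 3.79) lay 832 bp beyond the outer window and overlapped the wide 293T peak. The NFATC4 call therefore depended on the width of the window: with start windows widened by 1000 bp, or with summits within 500 bp of a start, only NFATC2 kept it. A provisional RNA gene, LOC124903291, runs over the NFATC4 starts in the RefSeq table.

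Such a difference was uncommon among genes. Of 3250 protein-coding genes with 2 or more separate start regions in the table, 46 (1.42%) had at least 1 start covered in J76 only and another in 293T only, and of the 2338 with a start peak in both lines the share was 1.97%. NFATC1, NFATC2 and NFATC4 are the members with several start regions, and 2 of these 3 were called. This readout was chosen after the peaks had been seen, so the count of members is a description.

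**Figure D1:**
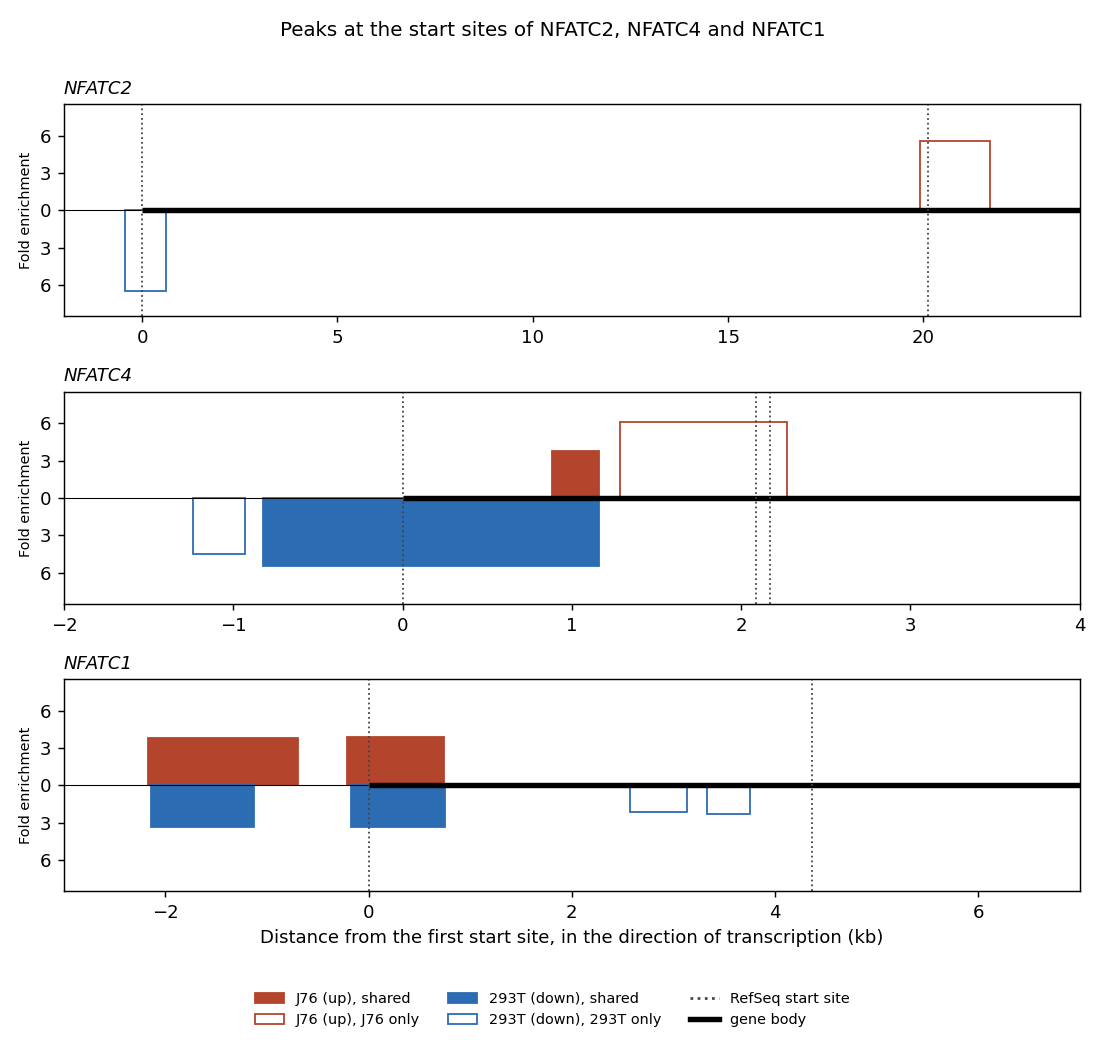
Peaks near the start sites of NFATC2, NFATC4 and NFATC1, drawn to scale as boxes by distance from the first start site in kb, with fold enrichment (each in its own list) upward for J76 and downward for 293T; filled boxes are shared, open boxes are found in 1 line, dotted lines are RefSeq start sites and the black bar is the gene body. The J76-only and 293T-only boxes of NFATC2 stand at separate starts 20.1 kb apart, at NFATC4 the J76-only box covers the inner starts while the 293T box at the outer start is filled because it overlaps a second J76 peak, and the filled boxes of NFATC1 coincide at its first start.

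The start windows differed in composition. The outer NFATC2 window had 57.7% G and C, 24 CG dinucleotides, 3 matches to GGAAA beginning 136, 97 and 72 bases before the start, and a TATAAA match 29 bases before it. The inner window had 80.7% G and C, 38 CG dinucleotides, 3 matches to GGGCGG (the GC box, bound by Sp1) and none to GGAAA or TATAAA. Over all 22156 start windows of protein-coding genes the median was 62.3% G and C and 21 CG dinucleotides, so the inner NFATC2 window lay at percentile 97.3 for G and C and the outer at 35.2.

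At NFATC4 the difference was smaller. Its outer window had 70.3% G and C and 1 match to GGAAA, and the first inner window 76.7% and none. GGGCGG went the other way than at NFATC2, with 3 matches in the outer window and 2 in each inner one. GGAAA was in 59.4% of all start windows, GGGCGG in 56.3% and TATAAA in 9.46%. In both genes, then, the start covered in J76 held more G and C and no GGAAA. That pattern was not general among the 46 genes with different starts covered. The J76 start was the richer in G and C in 25 and the poorer in 21, and GGAAA was in the 293T start alone in 10 and in the J76 start alone in 10. The motifs TGANTCA (AP-1, in 6.16% of windows), TGACGTCA (CRE, 2.26%) and CCGGAAG (ETS, 12.8%) had no match in any of the 8 NFAT start windows; CCGGAAG and GGAAA share GGAA, but the letter after it differs, so one GGAA cannot count for both. All motifs were read on both strands.

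At NFATC1 the first start was covered in both lines, by a J76 peak of fold 3.92 (chr18:79395716-79396667) and a 293T peak of fold 3.30 (chr18:79395760-79396679). Their summits lay 41 bp before and 13 bp inside the start site. Both were low in their lists by fold, at percentiles 30.3 and 20.4, but wide, at 952 bp and 920 bp. A second shared pair lay upstream, where the J76 peak (1482 bp, fold 3.78) had its summit 841 bp before the start and the 293T peak (1017 bp, fold 3.31) 2004 bp before it. The window of the second, constitutive start, 4.37 kb downstream, held no peak in either line, although its sequence has 73.3% G and C, 41 CG dinucleotides and 6 matches to GGGCGG. In 293T 2 weak peaks (folds 2.10 and 2.27) lay between the starts, the nearer of them 361 bp before this window, and in J76 the nearest was 3382 bp away. A missing peak is not evidence of closed chromatin, since read depth is unknown for both libraries.

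NFATC3, expressed in thymocytes and many other cells, had the strongest start peak of the calcineurin-regulated members. The J76 peak (chr16:68084475-68086091) had a fold of 7.53 and a −log10 q of 81.1, and the 293T peak (chr16:68084617-68086148) 8.42 and 71.6. The summits were 12 bp and 19 bp before the start site. Its window held 71.7% G and C and 2 matches to GGGCGG.

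NFAT5 also had a strong peak in both lines, at its low-coordinate gene end, with a fold of 7.67 in J76 (chr16:69565526-69566940) and 7.36 in 293T (chr16:69565478-69566998). The summits were 137 bp apart. No start window of NFAT5 was used here. Read over gene ends, where a peak within 1 kb of either end counts, 4 of 5 members had such a peak in J76 and 5 of 5 in 293T. The exception was NFATC2, which by this readout was a 293T-only gene because its J76 peak lies at the inner start. NFATC4 counted in J76 only through its weaker peak (fold 3.79) beyond the outer start. With 500 bp either side of an end, the J76 count was 3 and the 293T count stayed at 5. All 4 members with a start in the table had a start peak in both lines. Of 15812 protein-coding genes with a start window, 60.8% were covered at a start in both lines. Another 2.92% were covered only in J76, 8.46% only in 293T, and 27.9% had no start peak.

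**Figure D2:**
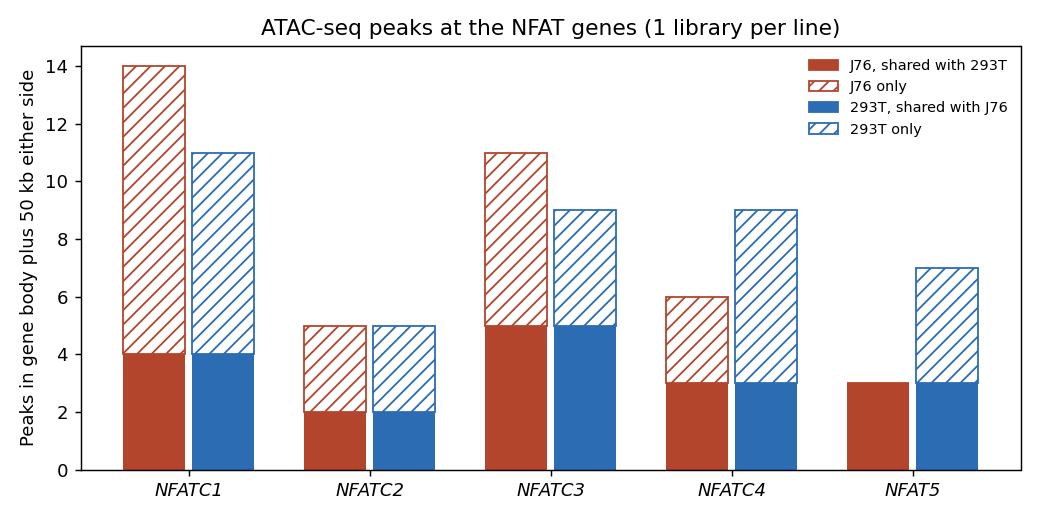
Number of peaks (vertical axis) in each gene body plus 50 kb either side, for J76 (red) and 293T (blue); solid parts overlap a peak of the other line and hatched parts do not. NFATC1 has the most peaks in both lines (14 and 11), and NFAT5 has no J76-only peak.

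Over the whole windows NFATC1 held the most peaks in both lines. It had 14 peaks in J76 and 11 in 293T, NFATC2 5 and 5, NFATC3 11 and 9, NFATC4 6 and 9, and NFAT5 3 and 7. Per 100 kb of window, the density in J76 ran from 1.26 at NFAT5 to 5.998 at NFATC1, around a median of 3.20 over 19974 protein-coding genes, and in 293T from 1.81 at NFATC2 to 7.99 at NFATC4, around 3.97. NFATC2 and NFAT5 were below the median in both lines and NFATC1 and NFATC4 above it. NFATC3 was above it in J76 (4.51) and below it in 293T (3.69).

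Peaks of the lines that had 1 bp or more in common were counted as shared. In the windows 17 of 39 J76 peaks were shared (43.6%, 95% Wilson interval 29.3 to 59.0) and 17 of 41 293T peaks (41.5%, 27.8 to 56.6). In the whole lists the shares were 52.3% in J76 and 36.0% in 293T, both within these intervals, which cover counting error only. Peaks in the window of any protein-coding gene were shared in 56.7% and 39.8%. With each list cut into 10 equal bins by fold, peaks spread over the bins as the members' are were shared in 44.8% and 40.02%, and with bins by −log10 q, added after seeing the data, in 48.8% and 42.1%. The members' shares lay close to these values. Most shared pairs were well aligned, with a median distance of 12 bp between summits and 11 of 17 pairs within 50 bp. The exceptions included the upstream pair of NFATC1, 1163 bp apart, and the pair at the outer start of NFATC4, 522 bp apart. With summits within 250 bp as the rule, 38.5% of J76 and 36.6% of 293T window peaks were shared.

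The line-only peaks were weaker than the shared peaks of the same windows. Their median fold was 3.67 for the 22 J76-only and 4.18 for the 24 293T-only peaks, against 5.36 and 6.97 for those shared peaks. Among all J76-only peaks the J76 median fell between percentiles 36.9 and 41.7 by fold. Among all 293T-only peaks the 293T median fell between percentiles 62.1 and 63.5. A −log10 q of at least 20 was reached by 3 of the 22, against 12.1% of all J76-only peaks, and by 4 of the 24, against 10.5% of all 293T-only peaks. Those 3 in J76 were the inner starts of NFATC2 and NFATC4 and a site downstream of NFATC3. The 4 in 293T were the outer start of NFATC2, 1 site downstream of NFATC3 and 2 sites beside NFATC4. So 3 of these 7 peaks lay at the start sites whose sequences are printed above.

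By number of line-only peaks, NFATC1 (10 in J76 and 7 in 293T) and NFATC3 (6 and 4) had more in J76, NFATC4 (3 and 6) and NFAT5 (0 and 4) more in 293T, and NFATC2 had 3 in each. Among all protein-coding genes 29.7% had more J76-only and 53.6% more 293T-only peaks. These differences depended on how peaks were chosen. With peaks of −log10 q 5 or more, and sharing called again among them, NFATC1 and NFATC3 each had 1 more 293T-only peak. With sharing kept from the full lists, NFATC3 had 4 line-only peaks of that strength in each line. With the 20000 strongest peaks of each list NFATC1 and NFATC3 still had 1 more J76-only peak. Without flanks NFATC4 turned to 2 more in J76, and NFAT5 had 1 more in 293T.

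**Figure D3:**
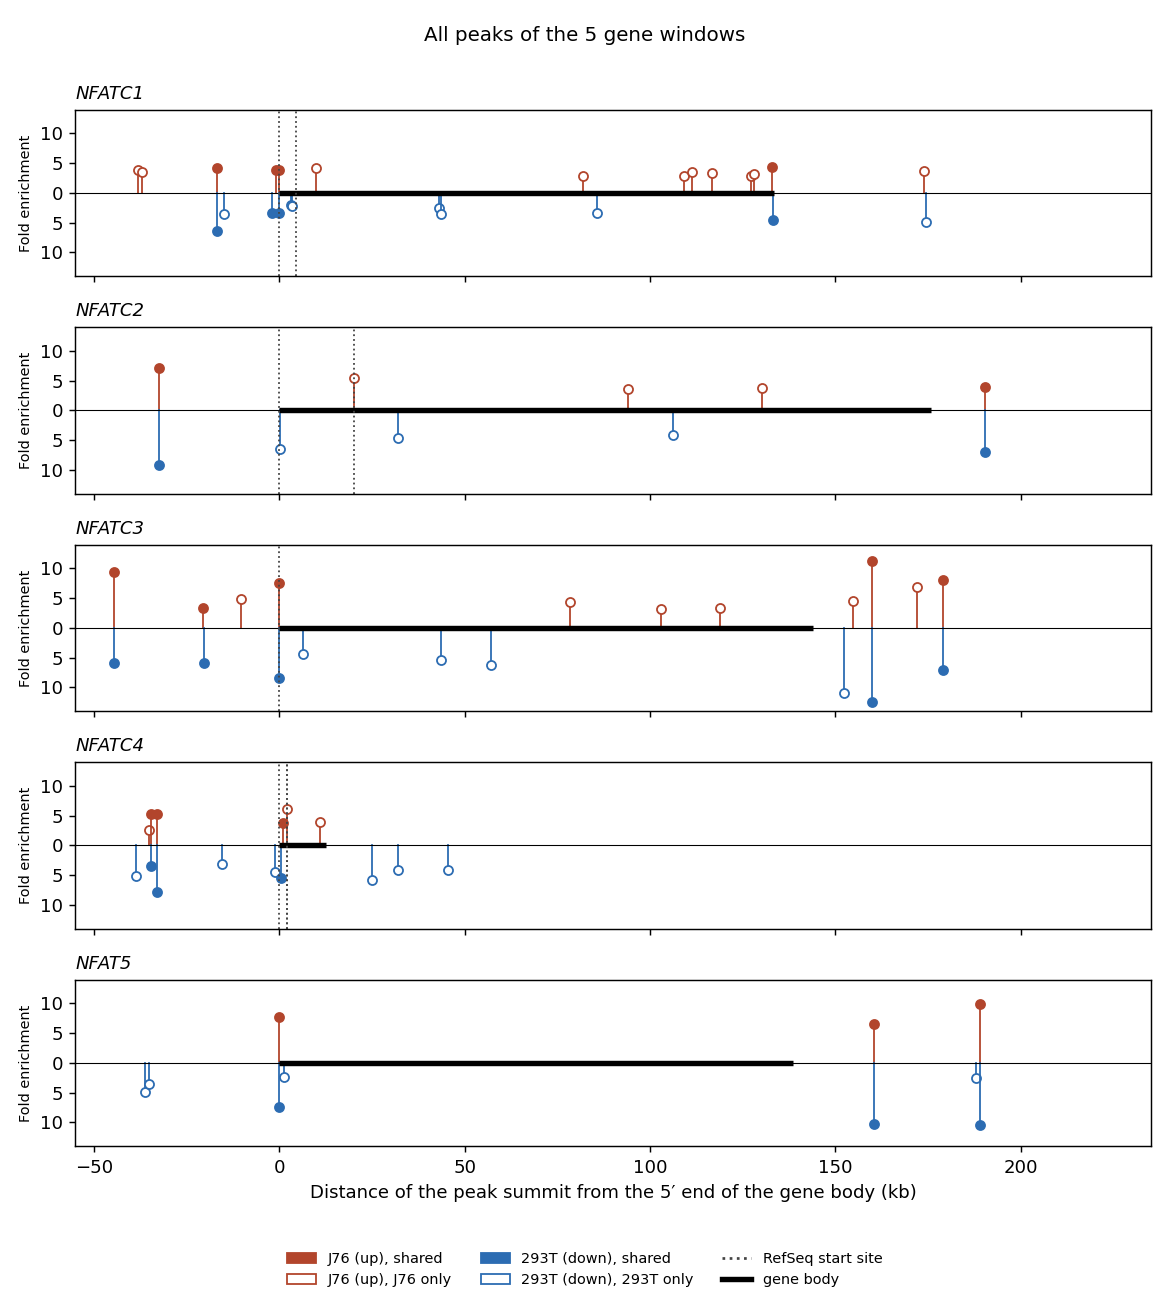
All peaks of the 5 windows by distance of the summit from the 5′ end of the gene (for NFAT5 the low-coordinate end), in kb, with fold enrichment, each in its own list, upward for J76 and downward for 293T; filled circles are shared, open circles are found in 1 line, dotted lines are start sites and the black bar is the gene. Open circles in the body of NFATC1 lie low. Filled circles at the start of NFATC3, and downstream of NFATC3 and NFAT5, are high in both lines, and those downstream lie at other genes.

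Within the body of NFATC1 the line-only peaks lay in different intervals. J76 had 7 line-only peaks there and 293T 5. In J76, 5 of the 7 lay between 109 and 128 kb from the first start, with folds from 2.85 to 3.58, and 293T had none there. In 293T a pair lay 42.9 and 43.6 kb from the start (folds 2.62 and 3.59), and J76 had none within that interval. The J76-only peak with the highest fold in the window was 10 kb into the gene (4.19), followed by sites 38.2 kb upstream (3.77) and 174 kb from the start, beyond the gene (3.73). The highest 293T-only folds were beyond the gene as well (4.84 at 175 kb), at 43.6 kb, and 15.0 kb upstream (3.51). Shared peaks lay at the far end of the gene (4.36 in J76 and 4.59 in 293T) and 16.8 kb upstream at the end of ATP9B, an aminophospholipid flippase gene (4.21 and 6.38).

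NFATC2 had few peaks for its 176 kb. Besides the starts, J76 had peaks 94.0 kb (fold 3.61) and 130 kb (3.83) into the gene, and 293T had them at 31.9 kb (4.59) and 106 kb (4.17). None of these 4 overlapped a peak of the other line. Its shared peaks were both outside the gene, 32.3 kb upstream (7.19 in J76 and 9.18 in 293T), near the end of ATP9A, and 190 kb from the outer start (3.88 and 6.97). Every peak within the NFATC2 gene body was thus found in 1 line only, 3 in each, while both flanks were shared. In the bodies of all 5 members together 15 of 20 J76 peaks and 12 of 17 293T peaks were line-only. In the whole lists, which also hold peaks outside gene bodies, 52.3% of J76 and 36.0% of 293T peaks were shared. The line-only share in the bodies of all protein-coding genes is not given here, so these small counts are a description.

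The window of NFATC3 lies among other genes. Its strongest shared peak in both lines was at PLA2G15, a lysosomal phospholipase gene (11.2 in J76 and 12.4 in 293T). Another was at SLC7A6, an amino acid transporter gene (8.01 and 7.002). The second highest shared fold in J76 lay 44.6 kb upstream, inside DUS2, which encodes a tRNA-modifying enzyme (9.36 and 5.84). These were counted in the NFATC3 window by distance alone. The strongest 293T-only peak of the 5 windows was also there. In 293T a peak at chr16:68237073-68238160 had a fold of 11.02 and a −log10 q of 87.3, at percentile 99.6 of all 293T-only peaks by fold. It came within 1 kb of an end of ESRP2, which encodes an epithelial splicing regulator. The strongest J76-only peak of this window lay 172 kb from the start (6.94), inside PLA2G15. In the gene body, J76 had 3 line-only peaks with folds from 3.25 to 4.39, the lowest of them 103 kb from the start, and 293T had 3 with folds of 4.35, 5.42 and 6.26 at 6.41, 43.7 and 57.1 kb.

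NFATC4 is a short gene, 12.7 kb long, and most of its 293T peaks lay outside it. Upstream, 2 shared sites at 34.5 kb (5.36 in J76 and 3.42 in 293T) and 33.1 kb (5.28 and 7.90) lie inside ADCY4, an adenylyl cyclase gene. In 293T, line-only peaks stood 1.08 kb before the outer start (4.49), 38.8 kb upstream (5.13), and 25.1 kb from the start between NFATC4 and NYNRIN (5.80). Another covered the start of NYNRIN (4.19). J76 had no peak downstream of the gene, and its line-only peaks besides the inner start were 11.02 kb into the gene (3.97) and 35.0 kb upstream (2.59).

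NFAT5 had no peak in its body in either line beyond the first 2 kb. All 3 J76 peaks of its window were shared: the one at the gene end, one at the start of NQO1, an antioxidant enzyme gene (6.49 in J76 and 10.2 in 293T), and one at the start of NOB1, a ribosome assembly gene (9.91 and 10.5). The 4 293T-only peaks had folds from 2.29 to 4.80 and reached a −log10 q of 8.42 at most. Of these, 2 stood 36.2 and 35.1 kb upstream (4.80 and 3.55), 1 lay 1.25 kb into the gene and 1 beside NOB1 (2.51).

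The other genes of the calcineurin route were mostly covered in both lines. Of 37 listed genes 36 were in the gene table, and 32 of these had a gene end peak in both lines. Only in J76 were 0 covered, only in 293T 2, and 2 had no such peak. Over all protein-coding genes the shares were 60.7%, 3.94%, 9.09% and 26.3% in the same order, and nothing particular to the route is read from the difference. Start windows were available for 28 of the genes. By these, 23 were covered in both lines, 2 only in 293T, and 3 had no start peak.

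By role, the calcineurin catalytic subunit genes PPP3CA (6.35 in J76 and 5.34 in 293T), PPP3CB (8.74 and 9.26) and PPP3CC (8.19 and 8.29) had peaks in both lines, as did the regulatory subunit gene PPP3R1 (8.19 and 8.97). The testis subunit gene PPP3R2 had none in either line. An end of USP54 lies within 2 kb of one of PPP3CB, and PPP3CA, PPP3CB and PPP3CC had no start window. Peaks in both lines were also found at RCAN1, a calcineurin inhibitor that is itself a known NFAT target (10.1 and 12.0), and at GSK3B (5.62 and 4.67) and DYRK1A (7.09 and 5.97), kinases that return NFAT to the cytoplasm. By the larger of the folds in the lists, the highest among genes covered in both were HOMER2, a scaffold that competes with calcineurin for NFAT (12.9 and 12.2), and CHP1, a calcineurin-like calcium-binding protein (10.3 and 12.2). Ends of WHAMM and RAMAC lie within 2 kb of an end of HOMER2, and an end of EXD1 within 2 kb of one of CHP1, so these peaks cannot be assigned to 1 gene. At the HOMER2 start window the folds were 10.4 and 6.40. The members in 293T only were LRRK2 (8.98) and the calcium channel gene ORAI3 (5.24), which has an end of FBXL19 within 2 kb.

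Line-only peaks in the wider windows of these genes divided as 12 genes with more in J76 and 21 with more in 293T, of 36, where all genes gave the 29.7% and 53.6% stated for the NFAT genes. PPP3CA had 0 J76-only and 18 293T-only peaks, GSK3B 1 and 13, and ITPR1, an intracellular calcium channel gene, 4 and 23, whereas RCAN3 had 6 and 0. These 4 genes were picked after their values were seen.

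Among 14 genes tied to NFAT5 and osmolyte handling, 8 had a gene end peak in both lines, 3 only in 293T, 0 only in J76, and 3 had none, beside all-gene shares of 60.7%, 9.09%, 3.94% and 26.3% in the same order. AKR1B1, the aldose reductase that makes sorbitol (9.71 in J76 and 9.78 in 293T), and TNFRSF21 (11.4 and 10) had the highest folds among those in both. The 293T-only genes were UGT8 (5.81), the urea transporter gene SLC14A2 (4.59) and the kinase gene SGK1 (4.59). SLC14A2 and SGK1 had a start peak in both lines when start windows were read, with folds of 9.02 and 6.47 at SLC14A2 and 7.19 and 5.36 at SGK1. S100A4 went from both lines by gene end to J76 only by start window, with a fold of 7.15. Ends of S100A5 and S100A3 lie within 2 kb of an end of S100A4. By start windows, available for 12 of the genes, 8 were covered in both lines, 1 only in J76, 1 only in 293T, and 2 had no start peak. The water channel genes AQP1 and AQP2 had none in either line.

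**Figure D4:**
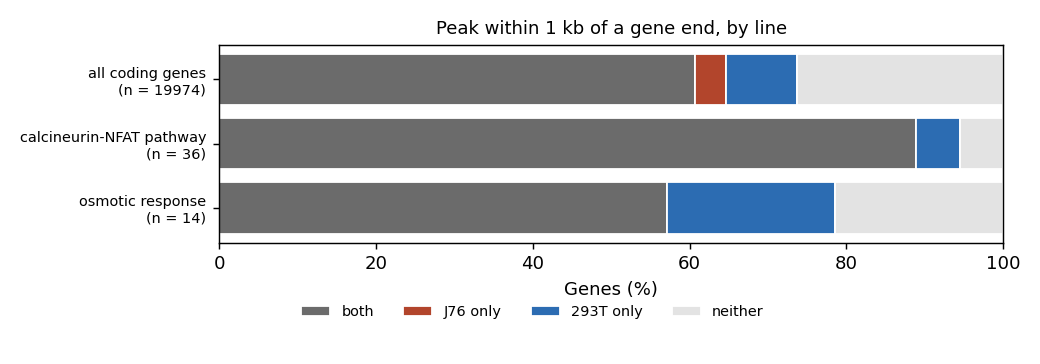
Share of genes (horizontal axis, %) with a peak within 1 kb of a gene end in both lines, J76 only, 293T only or neither, for all 19974 protein-coding genes, 36 genes of the calcineurin route and 14 osmotic response genes. No gene of either list is J76 only, beside 3.94% of all protein-coding genes.

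In the profile of J76-only, 293T-only and shared peak counts, the genes nearest to NFATC1 were ZNF521 and FRAS1 (both 9, 7 and 4, distance 0.138 on log2 of the count plus 1) and RALYL (10, 6 and 4, distance 0.193). The other members were not singular in this measure. RCOR1, STAM and GNA11 were among 8 genes with exactly the counts of NFATC3, PGF, FBXO6 and SSTR5 among 23 with those of NFATC4, R3HDM1, RBM19 and ITCH among 48 with those of NFATC2, and LRRK2 and WWP1 among 86 with those of NFAT5. The profile rests on 2 libraries.

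The lists went with their labels at marker genes. The T cell markers CD3E, CD3G, CD2, CD28, LCK, ZAP70 and LAT each had a gene end peak in J76 only, and all 8 kidney or epithelial markers (WT1, LHX1, SALL1, GDNF, CAV1, KRT8, KRT18 and TJP1) in 293T only. Start windows were available for 5 T cell and 5 kidney or epithelial markers. By these, 4 T cell markers were covered in J76 only and 3 kidney or epithelial markers in 293T only. CAV1 was covered in both lines, and CD2 and KRT8 had no start peak in either. KRT8 and KRT18 are neighbours that share 1 peak. Most of these markers were picked with such results known, so they describe the lists and do not check them independently. Of 6 B cell markers 5 had no peak at a gene end in either line, and BLK had one in both. Of 6 myeloid markers 3 had none, and CSF1R, ITGAM and S100A8 had one in 293T only, with folds from 3.13 to 5.01. By start windows, CSF1R, ITGAM and S100A8 had no peak in either line. Ends of HMGXB3 and PDGFRB lie within 2 kb of an end of CSF1R.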

How the data were processed

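Each library's peak list was used as the authors deposited it. The submitters' processing notes name Bowtie2, a read aligner, and MACS2, a peak caller, with no version. Settings, duplicate handling, cut-site shift and build: not given in the sources used here. Column 7 holds the authors' fold enrichment, a linear ratio, and the deposited −log10 p-values and q-values follow it. The deposited integer score was not used. Folds describe or rank peaks within a list. The weakest peak kept had a −log10 q of 1.32 (J76) or 1.37 (293T).

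Contig names are those of GRCh38, and positions count from 1. As a check of the build, 56.5% (J76) and 62.7% (293T) of start regions of protein-coding genes held a peak, against 2.89% and 3.44% after a shift of 10 kb. Gene bodies and start windows came from RefSeq tables of GRCh38.p14, and 4 of 5 members had start windows. Comparisons used the autosomes and chromosome X, with 58730 and 84951 peaks. Overlaps were computed in Python 3.11.15 with pandas 2.3.3 and tested on simulated data. Overlapping start windows of a gene were merged into regions.

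Members and lists were chosen with earlier results of these data known. Named were all members, peaks at their starts or ends, up to 3 peaks per class with the highest fold, and per gene list up to 4 genes covered in 1 line and 2 in both. Other peaks and genes were named, and start-window readouts added, after their values were seen. ORAI1 was not analysed here, and some genes that the naming rules give are not reported here.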

Additional observations from a re-analysis of the deposited data

How the results depend on the processing

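Read depth is unknown and there is 1 library per line, so small counts of peaks set most values. In settings that dropped peaks, sharing was called again among the peaks kept. Against 39 J76 and 41 293T window peaks, a −log10 q of at least 10 left 19 and 22, the 20000 strongest peaks per list 14 and 13, gene bodies without flanks 20 and 17, and flanks of 100 kb gave 69 and 62. The J76-only count of 22 became 11 at a −log10 q of at least 5, 7 at 10 and 6 in the strongest 20000. The 293T-only count of 24 became 10 at a −log10 q of at least 10, 5 in the strongest 20000 and 12 without flanks. The shared part of the J76 peaks, 43.6%, became 59.3% and 63.2% at a −log10 q of at least 5 and 10, and 25% without flanks. That of the 293T peaks, 41.5%, became 61.5% in the strongest 20000 and 58.1% with 100 kb flanks. The same shares over all peaks or all gene bodies in these settings are not given here. Nothing particular to the NFAT genes is therefore read from these shifts.

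With only peaks of −log10 q 5 or more, or 10 or more, the members whose J76-only peaks outnumbered the 293T-only ones fell from 2 to 0. The count stayed at 2 with the strongest 20000 peaks, equal list lengths, the other overlap rules and the other flanks. The difference, J76-only minus 293T-only, turned from 3 to -1 at NFATC1 (−log10 q of at least 5), from 2 to -1 at NFATC3 (at 5 and at 10), and from -3 to 2 at NFATC4 without flanks. With sharing kept from the full lists, NFATC3 had 4 line-only peaks in each line at 5, and 3 in each at 10. The count of members with different starts covered stayed at 2 with 5 of the 7 added settings, and was 1, NFATC2, with start windows widened by 1000 bp or summits within 500 bp of a start. These settings were chosen after seeing the data. In the calcineurin list the strongest 20000 peaks gave 3 genes in J76 only (from 0) and 1 in 293T only (from 2), and a boundary of 2500 bp left 1 in neither line. In the osmotic list 1 gene was 293T only and 5 were in neither, both at a −log10 q of at least 10 and in the strongest 20000. Counts of members with a gene end peak did not change by over 1.5 times in the settings tried. The causes of these shifts, beyond fewer or more peaks entering and sharing being called again, were not tested.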
